A study of Mus musculus with 6 samples.

Results

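CC chemokines are small secreted proteins that attract leukocytes, and the 10 mouse genes described here, *Ccl2*, *Ccl3*, *Ccl4*, *Ccl5*, *Ccl6*, *Ccl7*, *Ccl9*, *Ccl17*, *Ccl22* and *Ccl24*, were examined for binding of the transcription factors C/EBPα, IRF8 and JUNB. A ChIP-seq peak, a genomic interval enriched in the DNA that an antibody precipitates, was a member when its deposited annotation named 1 of these genes as the nearest. Across the 6 peak lists 157 of 134964 peaks were members, and merging of overlapping peaks from all lists gave 58 of 60847 regions. All 10 of the 10 genes had at least 1 peak, and the share of all genes with a peak was not counted.

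The lists came from bone marrow-derived macrophages (BMDMs), primary cells grown from the marrow of wild-type C57BL/6 mice aged 8 to 12 weeks and differentiated for 6 days in L929 supernatant, a source of macrophage colony-stimulating factor. Each factor was mapped in untreated cells, called control below, and in cells exposed for 1 h to 20 ng/ml of IL-4. The comparison asks whether occupancy near these genes differed soon after IL-4, a cytokine that acts through the transcription factor STAT6. There was 1 sample per factor and condition, so no spread between replicates exists and no difference below was tested.

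CC chemokines signal through G protein-coupled receptors on migrating leukocytes. Macrophages release *Ccl2*, *Ccl3*, *Ccl4*, *Ccl5* and *Ccl7* during inflammation, whereas *Ccl17*, *Ccl22* and *Ccl24* are best known from type 2 responses, in which IL-4 takes part. C/EBPα and IRF8 are factors of the myeloid lineage that occupy macrophage enhancers, and JUNB is a subunit of AP-1, a dimeric factor.

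Peak strength is given as the deposited Peak Score, which has no stated unit and grows with enrichment. Scores are printed as deposited, and a region takes the highest score of each list. Distance to TSS is the distance from a peak to the nearest transcription start site (TSS), and a region's distance is that of its strongest peak. Within a factor, a control peak with no overlapping IL-4 peak is called lost and an IL-4 peak with no overlapping control peak gained, whatever the strength of the counterpart signal under the peak limit. Reads per sample are unknown and either of 2 library kits was used, so depth, kit or background cannot be told apart from IL-4. In these bulk samples, fewer cells of a kind and less binding per cell cannot be told apart either. Peaks near 7 of 8 macrophage marker genes were present, and 3 of 4 B cell, 2 of 5 T cell and 1 of 2 hepatocyte marker genes also had a peak, so the lists do not on their own identify the cell.

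The sequences on which the results turn are shown first. All positions are mm10 (GRCm38), 1-based. The first pair, on the plus strand, are the middles of the *Ccl2* regions with the highest C/EBPα score and with the highest IRF8 and JUNB scores, chr11:82007022-82007181 and chr11:82022789-82022948. Capitals mark matches on either strand to short motifs, AP-1 (TGANTCA), C/EBP (TTNCNNAA), IRF (GAAANNGAA), PU.1 (GAGGAAG) and, as a STAT6-type site, TTC, then 3 or 4 bases, then GAA. Patterns may overlap each other, and a match is a description of the letters and not evidence of a site.
Ccl2 28.5 kb upstream: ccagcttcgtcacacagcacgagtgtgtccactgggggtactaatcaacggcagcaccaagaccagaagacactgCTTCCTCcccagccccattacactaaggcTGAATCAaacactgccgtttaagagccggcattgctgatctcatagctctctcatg
Ccl2 12.7 kb upstream: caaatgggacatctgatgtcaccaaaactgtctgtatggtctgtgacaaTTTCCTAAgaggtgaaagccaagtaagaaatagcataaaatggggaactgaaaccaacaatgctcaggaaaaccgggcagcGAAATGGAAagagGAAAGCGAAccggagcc
The region 28.5 kb upstream held 1 AP-1 and 1 PU.1 match, and the region 12.7 kb upstream 1 C/EBP and 2 IRF matches, the latter close together.

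The next 3 sequences, also on the plus strand, belong to the strongest gained and lost peaks. The interval past the 3′ end of *Ccl7* (chr11:82048095-82048254) held the highest-scoring gained peak of both C/EBPα and JUNB. The *Ccl6* interval at chr11:83604731-83604890 held the highest-scoring lost IRF8 peak, and that at chr11:83618658-83618817 the highest-scoring lost C/EBPα peak.
Ccl7 2.5 kb downstream: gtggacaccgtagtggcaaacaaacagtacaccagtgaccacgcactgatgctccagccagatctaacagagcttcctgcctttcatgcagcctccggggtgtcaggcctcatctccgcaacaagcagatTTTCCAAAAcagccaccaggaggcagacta
Ccl6 11.7 kb upstream: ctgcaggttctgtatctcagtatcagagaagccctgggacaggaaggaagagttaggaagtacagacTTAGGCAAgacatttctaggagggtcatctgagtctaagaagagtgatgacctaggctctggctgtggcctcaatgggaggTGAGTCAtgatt
Ccl6 25.6 kb upstream: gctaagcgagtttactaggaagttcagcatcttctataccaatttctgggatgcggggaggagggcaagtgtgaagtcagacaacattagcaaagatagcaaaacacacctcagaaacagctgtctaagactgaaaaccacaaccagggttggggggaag
The *Ccl7* interval held 2 overlapping C/EBP matches and no AP-1 match. The *Ccl6* interval 11.7 kb upstream held 1 AP-1 and 1 C/EBP match, and the interval 25.6 kb upstream held none of the 5 motifs. The highest-scoring gained IRF8 peak lay at the *Ccl4* promoter.

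Promoter sequence just upstream of the TSS was taken from RefSeq (GRCm38.p6), where 5 of the 10 genes matched. The 4 shown had a promoter peak and are written on the strand of the gene: *Ccl3* at chr11:83649379-83649538 (minus), *Ccl6* at chr11:83593088-83593247 (minus), *Ccl9* at chr11:83578637-83578796 (minus) and *Ccl22* at chr8:94745434-94745589 (plus).
Ccl3 promoter: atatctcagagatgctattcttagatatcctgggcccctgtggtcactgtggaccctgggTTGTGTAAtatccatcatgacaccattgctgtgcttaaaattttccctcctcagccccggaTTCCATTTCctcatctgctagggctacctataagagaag
Ccl6 promoter: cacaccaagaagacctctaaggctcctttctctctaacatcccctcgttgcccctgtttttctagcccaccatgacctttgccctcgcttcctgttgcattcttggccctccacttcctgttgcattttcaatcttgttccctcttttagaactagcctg
Ccl9 promoter: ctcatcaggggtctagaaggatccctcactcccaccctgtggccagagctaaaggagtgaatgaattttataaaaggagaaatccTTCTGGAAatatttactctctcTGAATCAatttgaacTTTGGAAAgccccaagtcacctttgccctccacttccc
Ccl22 promoter: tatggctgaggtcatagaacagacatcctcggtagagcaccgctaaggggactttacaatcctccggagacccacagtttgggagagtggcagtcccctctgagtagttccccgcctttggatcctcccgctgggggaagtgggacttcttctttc
The *Ccl9* promoter held 1 AP-1 and 2 C/EBP matches, the *Ccl3* promoter 1 C/EBP and 1 IRF match, and those of *Ccl6* and *Ccl22* none. The *Ccl9* promoter peak (chr11:83578464-83578657) reached only the TSS end of the stretch shown, and the marked matches lay upstream of that peak. Its central 200 bp held none of the 5 motifs. Of 32851 promoters of 300 bases in the same table, 7.81% held the AP-1 pattern, 40.7% the C/EBP pattern, 8.56% the IRF pattern, 13.6% the PU.1 pattern and 14.6% the STAT6-type pattern. The promoter sequences shown are shorter, 160 bases or 156 at *Ccl22*, so their counts cannot be set directly against these shares.

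C/EBPα and IRF8 had peaks at nearly every CC chemokine gene, and JUNB had few peaks, at 6 of the 10 genes over both lists. C/EBPα had 36 member peaks without and 37 with IL-4, each time at 9 genes, with *Ccl22* the gene without one. IRF8 had 35 and 37 member peaks at all 10 genes. JUNB had 8 peaks at 5 genes without IL-4 and 4 peaks at 3 genes with it, and none in either list at *Ccl5*, *Ccl17*, *Ccl22* or *Ccl24*. The whole JUNB list shrank at the same time, from 3940 to 2325 peaks, while the C/EBPα lists held 24486 and 24612 peaks and the IRF8 lists 37525 and 42076. *Ccl2* with 36 peaks and *Ccl6* with 34 held the most, followed by *Ccl3* with 17, and *Ccl22* with 2 held the fewest.

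**Figure D1:**
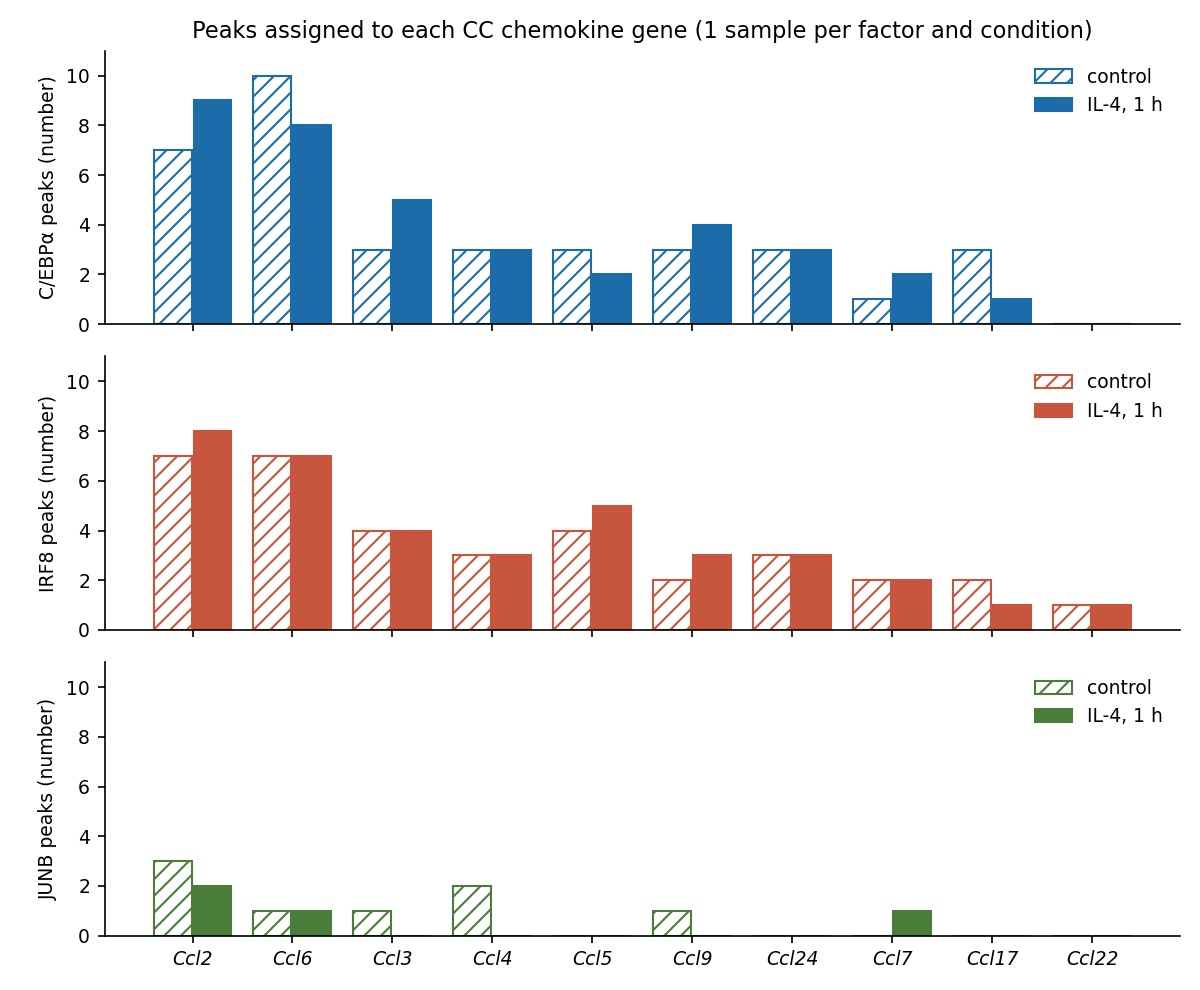
Bars give the number of peaks assigned to each gene (y axis) in control (hatched) and after 1 h of IL-4 (filled), with 1 panel per factor and genes ordered by total peaks. C/EBPα bars run from 0 at *Ccl22* to 10 at *Ccl6*, and JUNB reaches 3 at *Ccl2*.

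The member peaks lay closer to a TSS than peaks in general. Their median distance was 8469 bp in control and 7704 bp after IL-4 for C/EBPα, against 20235 and 19445 bp over all peaks. The IRF8 medians were 7785 and 7755 bp, against 20951 and 19977 bp. JUNB gave 6599.5 and 2645 bp, from 8 and 4 peaks, against 26144 and 27046.5 bp. Of the 58 regions 13 lay within 1000 bp of the TSS, 22 between there and 10000 bp and 23 farther out, and 39 were upstream. By the deposited annotation 81 member peaks (51.6%) were intergenic, 38 (24.2%) intronic, 25 (15.9%) in promoters and 10 (6.37%) around the transcript end, where all peaks gave 43.0%, 45.3%, 7.59% and 1.28%. These genes are short and closely spaced, and the part of that spacing in the distances was not tested.

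**Figure D2:**
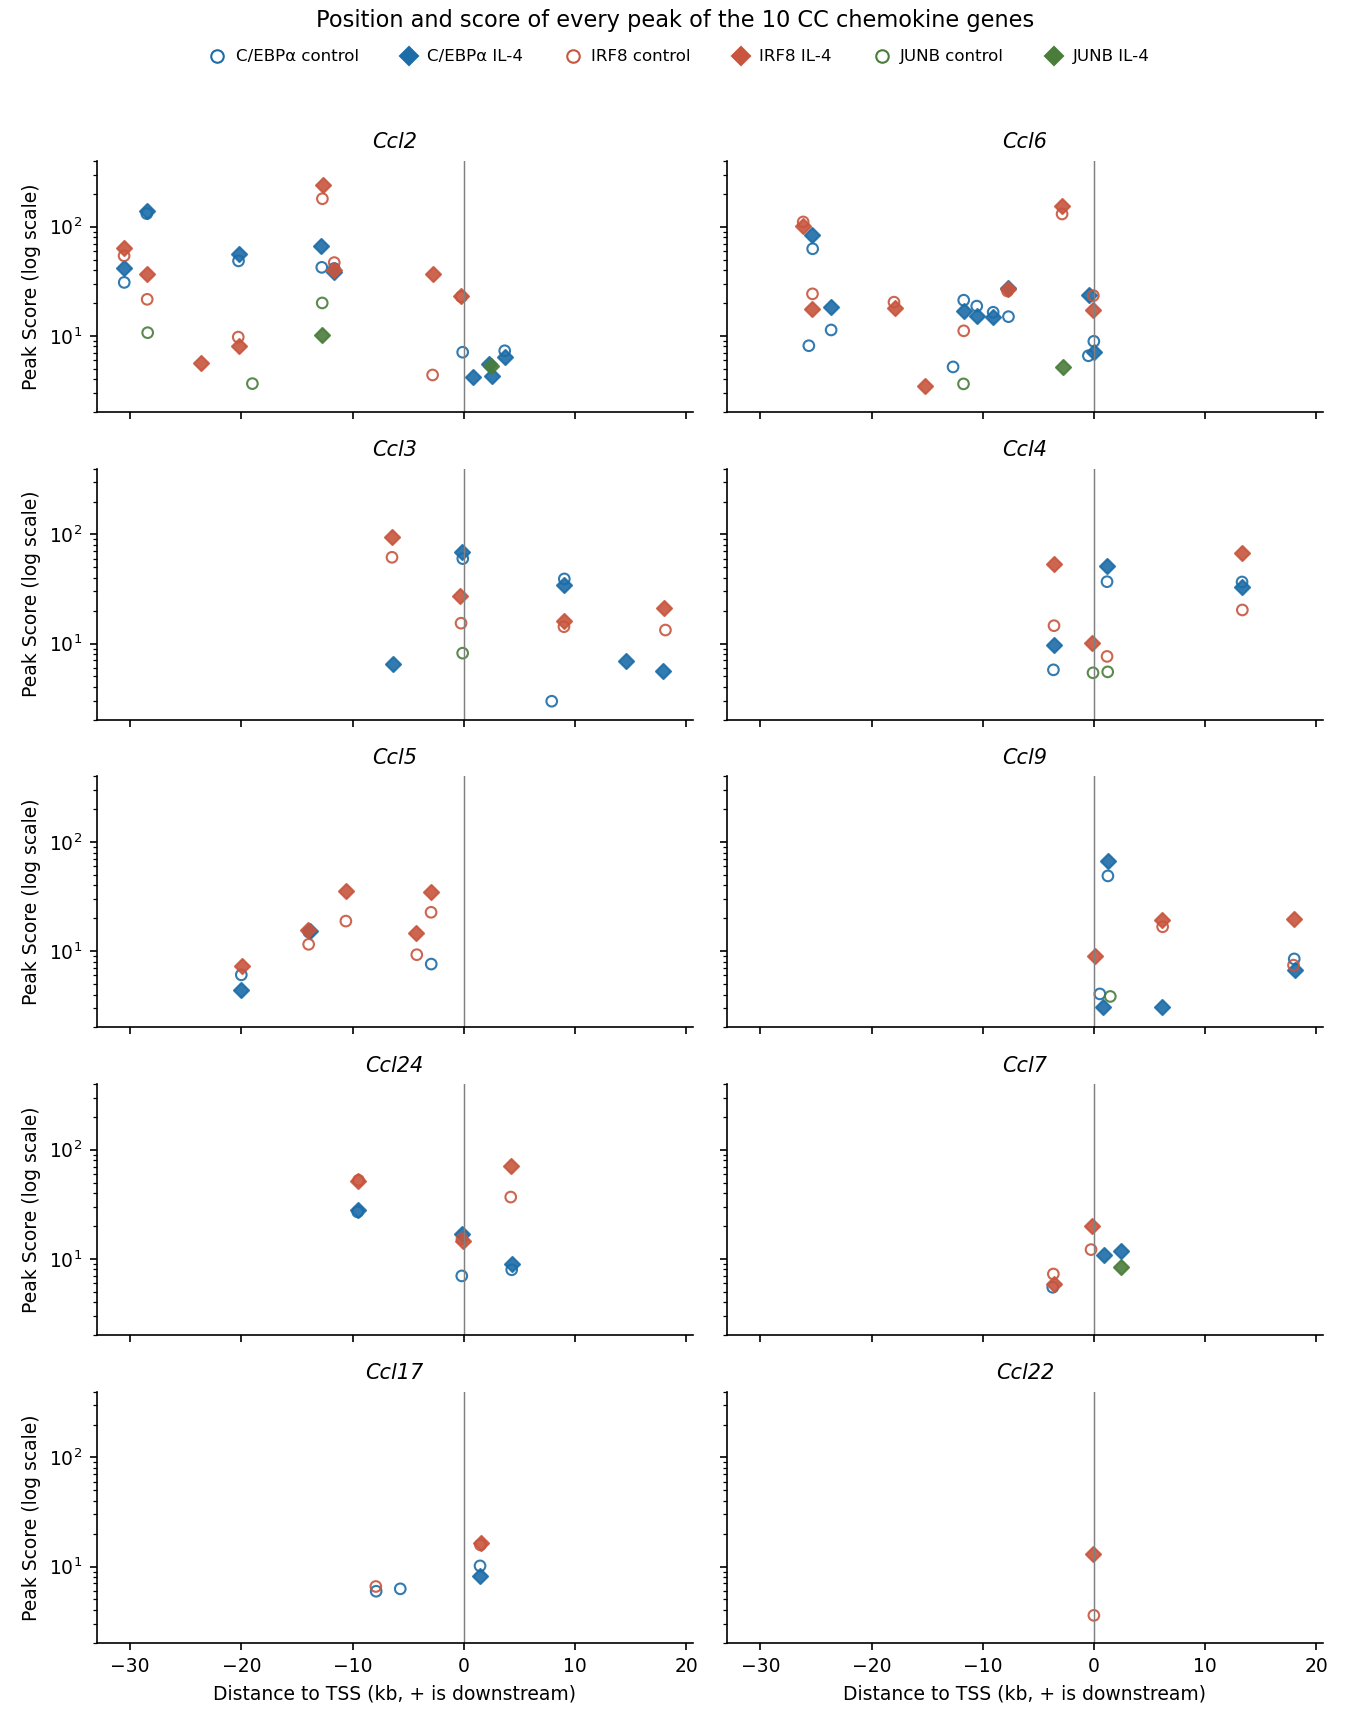
Each point is 1 of the 157 peaks, placed by its distance to the TSS (x axis, kb, negative upstream) and Peak Score (y axis, log scale), with 1 panel per gene, colour for factor, open circles for control and filled diamonds for IL-4. The highest points are the IRF8 peaks 12.7 kb upstream of *Ccl2*, at 180.45 and 243.15, and *Ccl5* has points only upstream.

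IRF8 peaks at these genes scored above the typical IRF8 peak. Their median score was 16.74 without and 19.84 with IL-4, against 10.34 and 9.61 over all IRF8 peaks. C/EBPα member peaks had medians of 10.73 and 15.24, against 11.195 and 11.22. JUNB member peaks had medians of 5.445 and 6.885, against 7.88 and 6.21.

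*Ccl2*, whose product draws monocytes through CCR2, carried the strongest binding of each factor. The region 12.7 kb upstream (chr11:82022435-82023113) scored 180.45 for IRF8 in control and 243.15 after IL-4, C/EBPα scored 42.43 and 66.99 there, and JUNB 20.02 and 10.21. IRF8 and C/EBPα were thus higher after IL-4 by 1.35-fold and 1.58-fold where JUNB was at 0.510 of its control score. Larger ratios were found in 30.3% of all IRF8, 15.4% of all C/EBPα and 68.6% of all JUNB pairs. The median over all JUNB pairs was 0.6855-fold. The region 12.7 kb upstream was the only member region with all 3 factors after IL-4 and the only one with a JUNB peak in both lists.

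The region 28.5 kb upstream of *Ccl2* (chr11:82006764-82007436) had the strongest C/EBPα peaks, with scores of 131.92 and 140.7. IRF8 scored 21.61 and 36.52 in it, and JUNB 10.69 in control with no peak after IL-4, the only lost JUNB peak with a score of at least 10. Farther out, 30.6 kb upstream, C/EBPα scored 30.87 and 42.06 and IRF8 54.15 and 64.28. At 20.3 kb C/EBPα scored 48.61 and 56.15 with IRF8 at 9.74 and 8.12, and at 11.7 kb both factors were slightly lower after IL-4, C/EBPα at 41.45 and 38.25 and IRF8 at 46.92 and 40.53. These 5 distal regions had C/EBPα and IRF8 peaks in both conditions.

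Nearer the gene the IRF8 peak 2.7 kb upstream of *Ccl2* (chr11:82032639-82032983) scored 4.38 in control and 37.12 after IL-4, an 8.48-fold difference and the largest among member pairs. Of all IRF8 pairs 0.0687% had a larger ratio. The control peak was weak, ranked 88% of the way down its list. None of the 5 motifs was found in its central 200 bp. The *Ccl2* promoter had an IRF8 peak of 22.84 and 23.34 and a C/EBPα peak of 7.08 in control only, which was the *Ccl2* peak nearest the TSS, 105 bp upstream of it. Beyond the promoter, C/EBPα peaks of 4.21 in the first intron and of 5.47 and 4.26 around the 3′ end were gained, with a JUNB peak of 5.31 beside the latter, and a JUNB peak of 3.65 at 19.0 kb upstream was lost. An IRF8 peak of 5.65 was gained 23.6 kb upstream, and C/EBPα scored 7.3 and 6.39 at 3.7 kb downstream.

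*Ccl7*, a neighbour of *Ccl2* that encodes another CCR2 ligand, showed C/EBPα peaks in different places in the 2 conditions. In control its C/EBPα peak of 5.49 lay 3.7 kb upstream. After IL-4 C/EBPα instead had a peak of 10.75 over the gene body (chr11:82046029-82047229, annotated to exon 2, and 1201 bp wide) and one of 11.87 past the 3′ end (chr11:82047891-82048426). These were the only gained C/EBPα member peaks with a score of at least 10. JUNB was gained at 8.46 in the latter region, its highest gained member peak, and had no *Ccl7* peak in control. IRF8 kept its promoter peak, 12.16 and 19.84, and its upstream peak, 7.27 and 5.92, and had none over the gene body or the 3′ end.

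*Ccl3* and *Ccl4*, which encode the macrophage inflammatory proteins 1α and 1β, lie next to each other. At the *Ccl3* promoter (chr11:83649161-83650070) C/EBPα scored 59.97 and 68.52, IRF8 15.36 and 27.04, and JUNB 8.16 in control only. The strongest *Ccl3* IRF8 peak lay 6.4 kb upstream and scored 61.65 and 95.28, and a C/EBPα peak of 6.44 was gained there. All 4 IRF8 pairs of *Ccl3* were higher after IL-4, including 13.29 and 20.96 at 18.0 kb and 14.26 and 16.17 at 9.0 kb downstream. C/EBPα at 9.0 kb downstream scored 39.08 and 34.6. C/EBPα also gained weak peaks of 5.64 and 6.85 downstream and lost one of 2.96.

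*Ccl4* had a pair of IRF8 peaks that were over 3 times higher after IL-4. The peak 3.6 kb upstream (chr11:83658796-83659210) scored 14.57 and 53.24 and the peak 13.3 kb downstream (chr11:83675665-83676119) 20.3 and 67.64, 3.65-fold and 3.33-fold higher. C/EBPα differed less in the same regions, 5.74 and 9.63 upstream and 36.63 and 33.16 downstream. The central 200 bp upstream held 1 C/EBP, 1 IRF and 1 STAT6-type match, and that downstream 1 C/EBP and 1 STAT6-type match.

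At the *Ccl4* promoter (chr11:83662299-83662597) an IRF8 peak of 10.07 was gained, the only gained IRF8 member peak with a score of at least 10, where a JUNB peak of 5.39 was lost. This lost peak was the *Ccl4* peak nearest the TSS, 96 bp upstream. In the second intron of *Ccl4* C/EBPα scored 36.86 and 51.34 while an IRF8 peak of 7.62 and a JUNB peak of 5.5 were in control only.

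*Ccl5*, also known as RANTES, which attracts T cells and monocytes, had no JUNB peak. It had 4 IRF8 peaks in control and 5 after IL-4, against 3 and 2 of C/EBPα. The IRF8 lists were also larger than the C/EBPα lists over all peaks. Its 5 regions all lay upstream, the nearest peak 2911 bp from the TSS and without a promoter peak. From the nearest region outwards IRF8 scored 22.72 and 34.56, 9.29 and 14.77, 18.87 and 35.85, and 11.56 and 15.54 in control and IL-4, each pair higher after IL-4. Another IRF8 peak of 7.27, 19.9 kb upstream, was gained. C/EBPα scored 15.01 and 15.33 at 14020 bp and 6.07 and 4.39 at 19.9 kb, and a peak of 7.62 at 2.9 kb was in control only.

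*Ccl6* and *Ccl9*, rodent chemokines that act on CCR1, had pairs that scored higher and pairs that scored lower after IL-4. At *Ccl6* 12 of the 14 regions lay in introns of a noncoding RNA gene (E230016K23Rik in RefSeq), so their link to *Ccl6* rests on the nearest TSS. The highest IRF8 scores were 130.8 and 154.29 at 2.9 kb upstream (chr11:83595692-83596296) and 110.57 and 101.15 at 26.2 kb (chr11:83619047-83619438), and neither region had a C/EBPα peak. A JUNB peak of 5.18 was gained at 2.9 kb. The highest C/EBPα scores were 62.78 and 83.72 at 25.3 kb, where IRF8 scored 24.26 and 17.72.

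Close to the *Ccl6* TSS a C/EBPα peak 0.5 kb upstream (chr11:83593418-83593742) scored 6.57 and 23.59, a 3.59-fold difference that 1.32% of all C/EBPα pairs exceeded. The neighbouring promoter region, 68 bp upstream, went the other way, C/EBPα at 8.91 and 7.16 and IRF8 at 23.38 and 17.08. At 11.7 kb upstream C/EBPα scored 21.22 and 16.86, while IRF8 at 11.12 and JUNB at 3.63 were in control only, this being the lost IRF8 member peak with a score of at least 10. The other lost peaks were C/EBPα at 8.12 and 5.19, and an IRF8 peak of 3.44 was gained. At 7.7 kb C/EBPα scored 14.99 and 27.68 with IRF8 at 25.76 and 26.65, and at 23.6 kb C/EBPα scored 11.32 and 18.32. C/EBPα at 9.1 kb (16.45 and 14.83) and at 10.6 kb (18.73 and 15.24) and IRF8 at 18.0 kb (20.36 and 17.87) were slightly lower after IL-4.

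In the first intron of *Ccl9* (chr11:83577027-83577743) C/EBPα scored 48.95 and 66.81 and a JUNB peak of 3.85 was lost. IRF8 peaks lay downstream, at 18.0 kb with 7.45 and 19.66, 2.64-fold higher after IL-4, and at the transcript end with 16.74 and 19.49. The *Ccl9* peak nearest the TSS was an IRF8 peak of 9.04, 76 bp inside the gene, found only after IL-4. C/EBPα peaks that were gained or lost at *Ccl9* had scores of 3.11, 3.08 and 4.06, and C/EBPα scored 8.5 and 6.7 at 18.0 kb.

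The type 2 chemokine genes, like *Ccl5*, had no JUNB peak. *Ccl17* with 7 peaks and *Ccl22* with 2 held the fewest of the 10 genes, and *Ccl24* held 12. *Ccl24*, whose product eotaxin-2 attracts eosinophils through CCR3, kept all of its C/EBPα and IRF8 peaks. Its region 4.2 kb downstream (chr5:135568391-135569085) scored 36.84 and 70.88 for IRF8 and 7.95 and 9.05 for C/EBPα. At the *Ccl24* promoter (chr5:135572997-135573421) C/EBPα scored 6.98 and 16.76, 2.40-fold higher after IL-4, and IRF8 15.28 and 14.45. At 9.5 kb upstream the scores were close in both conditions, 52.51 and 51.95 for IRF8 and 26.94 and 27.78 for C/EBPα.

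*Ccl17* and *Ccl22*, which lie close together on chromosome 8 and whose products attract T helper 2 cells through CCR4, differed from each other. *Ccl22* had an IRF8 peak at its promoter (chr8:94745408-94745889) as its only region, with scores of 3.57 and 13.13, 3.68-fold higher after IL-4. That ratio starts from the weakest IRF8 member peak in control, ranked 92.2% of the way down its list. *Ccl17* kept a region at its 3′ end (chr8:94811735-94812173), where C/EBPα scored 10.14 and 8.16 and IRF8 15.78 and 16.38. Upstream of *Ccl17* all peaks were lost, C/EBPα at 5.94 and IRF8 at 6.57 at 7.9 kb and C/EBPα at 6.25 at 5.7 kb. No *Ccl17* peak lay at the promoter, the nearest being 1421 bp inside the gene. For the other genes whose nearest peak has not been given, it was a C/EBPα control peak 95 bp from the TSS at *Ccl3* and 22 bp at *Ccl6*, and an IRF8 peak 212 bp away at *Ccl7*, 119 bp at *Ccl24* and 19 bp at *Ccl22*.

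Counted over the 10 genes, C/EBPα lost 9 of its 36 control peaks, and 21.4% of all C/EBPα control peaks were lost. It gained 10 of its 37 IL-4 peaks, against 22.0% of all. Of the control peaks 75% were kept, with a Wilson 95% interval of 58.9 to 86.3% that holds the 78.7% of all peaks, so the losses and gains were near the background. Wilson intervals here cover counting error only. Overlapping peaks were paired one to one, which gave 27 C/EBPα pairs, and the median log2 ratio of IL-4 to control scores was 0.09 (95% order-statistic interval -0.18 to 0.45), against -0.0038 over 19111 pairs. In 2 of the pairs, at *Ccl6* and *Ccl24*, the score was at least 2-fold higher, against 7.72% of all pairs, and in 0 at least 2-fold lower, against 6.56%.

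IRF8 lost 3 of its 35 control peaks, against 21.4% of all IRF8 control peaks, and gained 5 of its 37 IL-4 peaks, against 30.4% of all. It kept 91.4% of its control peaks (Wilson 77.6 to 97.0%), against 78.6%, and 86.5% of its IL-4 peaks had a control peak (72.0 to 94.1%), against 69.6%. With every peak within 50000 bp of a member TSS counted, the IRF8 peaks gained were 10 of 51, or 19.6% (Wilson 11.02 to 32.46%), an interval that holds the 30.4% of all, and those lost 7 of 48, or 14.6% (7.25 to 27.2%). Of 32 IRF8 pairs 23 (71.9%) scored higher after IL-4, against 55.4% of all pairs, and the median log2 ratio was 0.34 (0.03 to 0.71), or 1.26-fold, against 0.08 over 29110 pairs. At least 2-fold higher were 5 pairs, both of *Ccl4* and 1 each of *Ccl2*, *Ccl9* and *Ccl22*, against 11.3% of all pairs, and 0 were at least 2-fold lower, against 7.96%. The order-statistic interval treats peaks as independent, which neighbours at 1 locus are not.

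**Figure D3:**
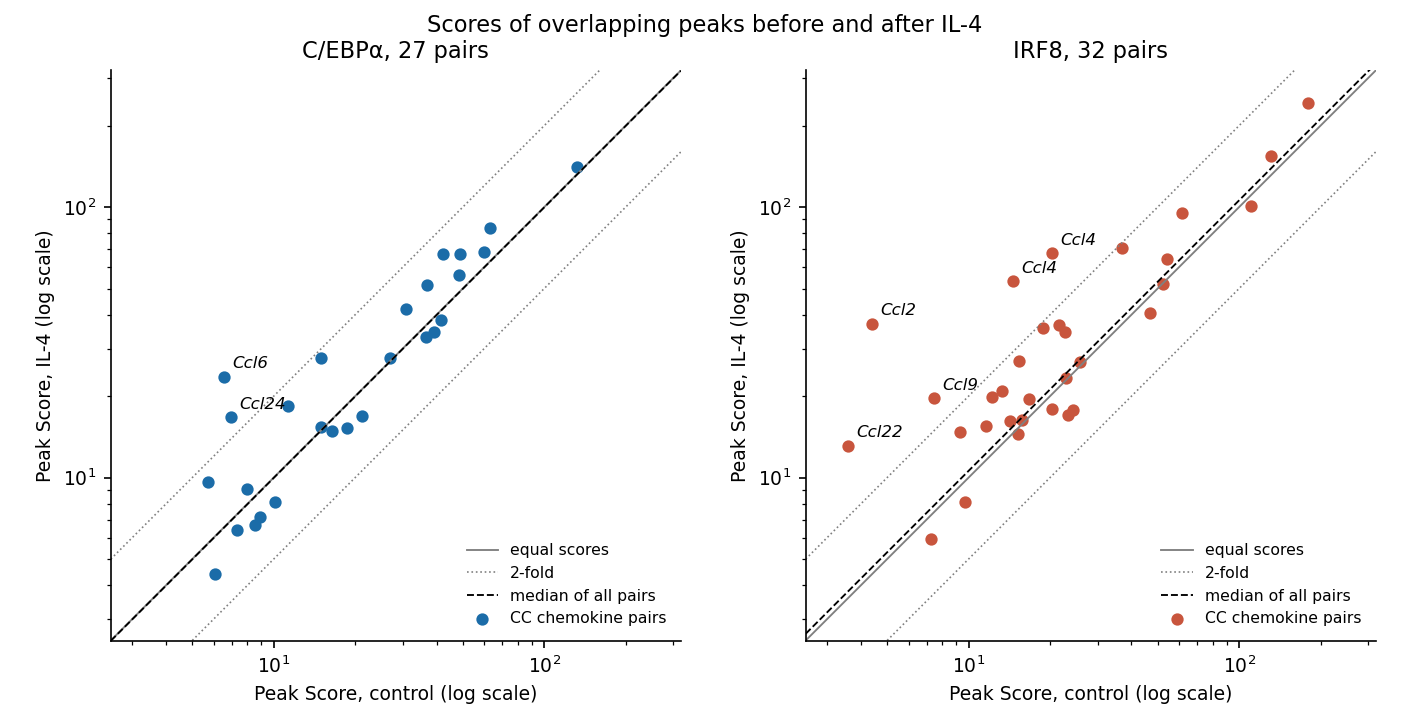
Each point is 1 pair of overlapping member peaks, with the control score on the x axis and the IL-4 score on the y axis (log scales) for C/EBPα (27 pairs) and IRF8 (32 pairs). Solid lines mark equal scores, dotted lines a 2-fold difference and dashed lines the median ratio of all pairs, and the points past the upper dotted line are named.

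IRF8 pairs were split by the known role of the gene, a grouping drawn after the values were seen. At *Ccl2*, *Ccl7*, *Ccl3*, *Ccl4* and *Ccl5* 16 of 19 regions with IRF8 in both conditions scored higher after IL-4, with a median of 1.55-fold. At *Ccl6* and *Ccl9* 4 of 8 were higher, with a median of 0.973-fold, and at *Ccl17*, *Ccl22* and *Ccl24* 3 of 5, with a median of 1.04-fold. The corresponding C/EBPα counts were 8 of 13, 5 of 10 and 3 of 4, with medians of 1.07-, 1.10- and 1.08-fold. Over all pairs 55.4% of IRF8 and 49.7% of C/EBPα scores were higher. The differences between these groups were not tested.

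JUNB lost 7 of its 8 member peaks, against 64.2% of all JUNB control peaks, and gained 3 of its 4 IL-4 peaks, against 39.2% of all. The share kept was 12.5%, with a Wilson interval of 2.24 to 47.1% that holds the 35.8% of all JUNB peaks, so with 8 peaks no departure from the whole list was detectable. The 1 pair, at *Ccl2*, was not 2-fold different, where 2.99% of all JUNB pairs were at least 2-fold higher and 29.9% at least 2-fold lower. In 5 of the 7 regions that lost JUNB a C/EBPα peak was present in both conditions. IRF8 was present in both conditions in 2 of these 7, at *Ccl2* and *Ccl3*, and was lost in 2, at *Ccl6* and *Ccl4*. The 3 gained JUNB peaks lay beside gained C/EBPα peaks at *Ccl2* and *Ccl7* and within an IRF8 region of *Ccl6*. Of all regions with JUNB in control, 2550 had both other factors, 306 only C/EBPα besides, 646 only IRF8 besides and 413 neither. After IL-4 these counts were 1586, 127, 338 and 261. Most JUNB regions of the whole lists thus also held C/EBPα. The same states were not counted over all regions that lost or gained JUNB.

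**Figure D4:**
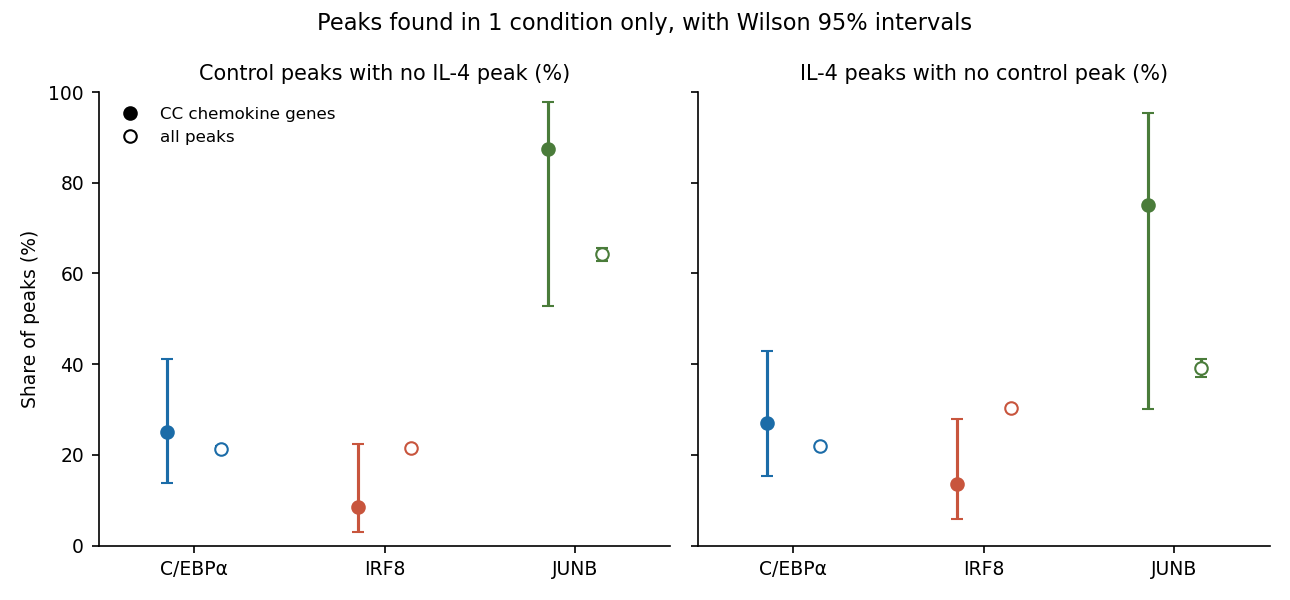
Points give the share of control peaks without an IL-4 peak (left) and of IL-4 peaks without a control peak (right), in percent on the y axis, for member peaks (filled) and all peaks (open) of each factor, with Wilson 95% intervals as bars. The member interval holds the open point in every case but the IRF8 gains, 5 of 37 peaks, an exception that did not hold when all peaks within 50000 bp of a member TSS were counted.

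Regions with C/EBPα and IRF8 but not JUNB were the commonest kind at these genes, 19 of 49 regions in control (38.8%, Wilson 26.4 to 52.8%) and 21 of 51 after IL-4 (41.2%, 28.8 to 54.8%). Over all regions the shares were 24.5% and 25.7%. All 3 factors were found together in 5 member regions in control (10.2%), 2 of them at *Ccl2* and 1 each at *Ccl6*, *Ccl3* and *Ccl4*, and in 1 after IL-4 (1.96%, 0.347 to 10.3%), against 5.38% and 3.08% of all regions. IRF8 alone occupied 11 member regions in control and 14 after IL-4, 22.4% and 27.5%, against 46.8% and 51.6% of all regions, and C/EBPα alone 11 and 12, 22.4% and 23.5%, against 20.4% and 18.2%. JUNB alone occupied 2 and 0 member regions, against 0.871% and 0.507% of all regions, and the count of 0 of 51 has an upper Wilson bound of 7.01%.

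**Figure D5:**
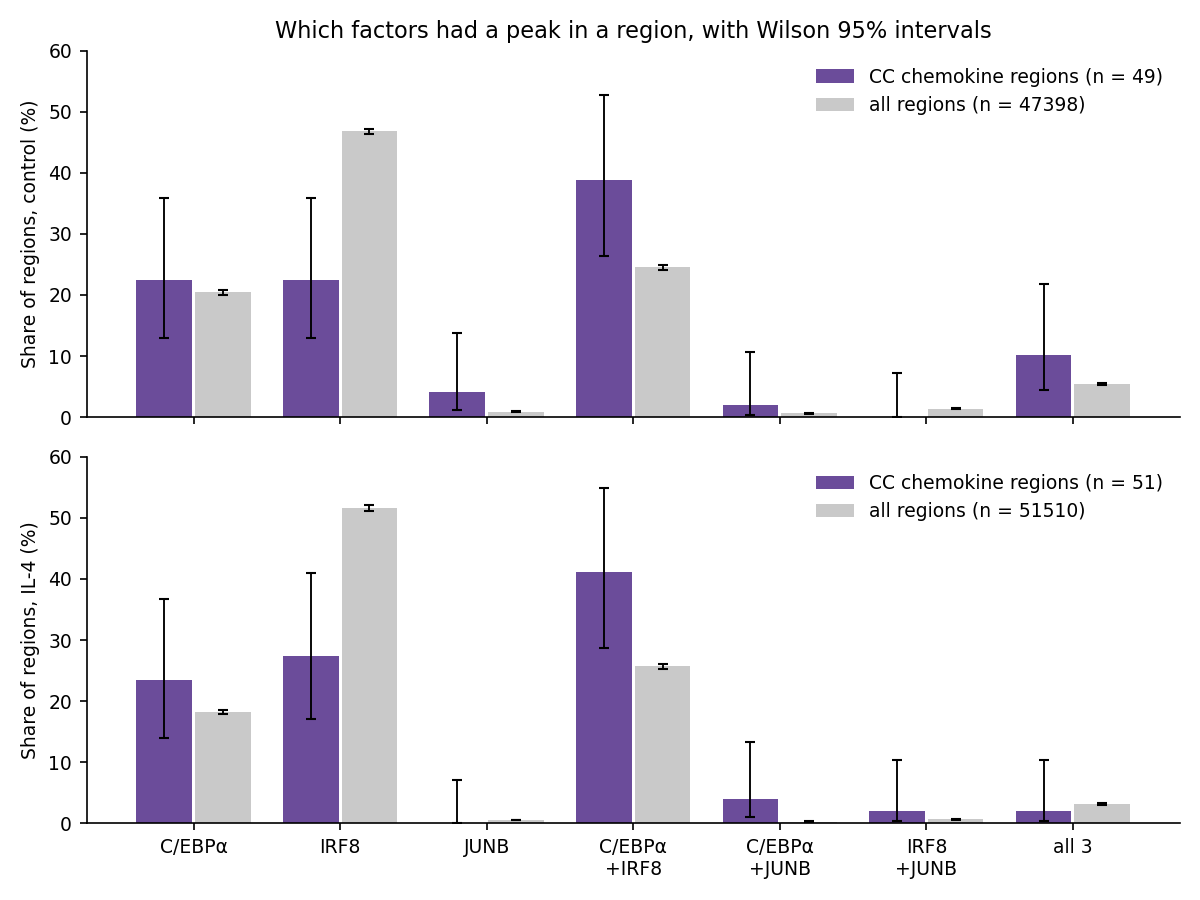
Bars give the share of regions (y axis, percent) with each combination of factors in control (upper panel, 49 member regions) and after IL-4 (lower panel, 51), for CC chemokine genes (purple) and all regions (grey), with Wilson 95% intervals. The joint C/EBPα and IRF8 bar stands at 38.8% and 41.2% for the members, and the bar for all 3 factors at 10.2% and 1.96%.

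Motif content of the 58 regions, read in 200 bp around the centre of the strongest peak, was compared with that of 60836 regions in which it could be read. The AP-1 pattern was in 11 member regions (19.0%, against 14.3% of all), the C/EBP pattern in 26 (44.8%, against 52.3%), the IRF pattern in 9 (15.5%, against 13.5%), the PU.1 pattern in 13 (22.4%, against 23.4%) and the STAT6-type pattern in 13 (22.4%, against 14.5%). The Wilson interval of each of these 5 member shares held the share of all regions, that of the STAT6-type pattern, 13.6 to 34.7%, near its lower end. Among the 11 member regions with JUNB the AP-1 pattern was in 2, at *Ccl2* and *Ccl6* (18.2%, Wilson 5.14 to 47.7%), against 46.6% of all JUNB regions.

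Other genes of the CC chemokine family and its receptors were counted from a list by the same rules. Of 10 further CC chemokine genes 6 had a peak, and their IRF8 peaks numbered 8 in control and 19 after IL-4, with 12 gained and 1 lost, against 30.4% of all IRF8 peaks gained and 21.4% lost. C/EBPα had 16 and 18 peaks there and JUNB 3 and 3. In *Ccl28*, the gene with the most regions among them, the highest IRF8 scores were 4.16 (control) and 8.17 (IL-4) and the highest C/EBPα score 12.44 and 13.83. *Ccl12*, in the same cluster as *Ccl2* and *Ccl7*, had its highest IRF8 score at 40.37 and 83.7 and its highest C/EBPα score at 18.19 and 60.98, and *Ccl11*, which encodes eotaxin, 16.34 and 47 for IRF8 and 11.33 and 22.34 for C/EBPα. Both genes had higher top scores of both factors after IL-4. Top scores in control and IL-4 can belong to different peaks. At *Ccl11* IRF8 scored 14.68 and 47 in 1 peak and 16.34 and 22.3 in another.

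Of 12 receptor genes counted, decoy receptors included, 10 had a peak. They had 43 IRF8 peaks in control and 44 after IL-4, 34 C/EBPα peaks in each condition, and 6 and 2 JUNB peaks. The median IRF8 ratio over 37 pairs was 0.944-fold, with 15 higher after IL-4, against 55.4% of all IRF8 pairs, and 6 at least 2-fold lower, against 7.96%. The highest IRF8 score was 81.33 and 77.28 at *Ccr1*, 96.41 and 47.06 at *Ccr3* and 79.04 and 98.45 at *Ccrl2*, the 3 receptor genes with the most regions among these 12.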

How the data were processed

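ChIP-seq peak lists of C/EBPα, IRF8 and JUNB in control and IL-4-treated BMDMs were analysed, 1 sample each. Per the labels and methods, chromatin was cross-linked with DSG and formaldehyde and libraries were made with either of 2 kits. The authors aligned reads to mm10 with BWA, called peaks per sample with MACS2 at a q-value limit of 0.01, removed blacklisted regions and annotated with HOMER. The submitters' processing notes name BWA 0.7.10, SAMtools 0.1.19, MACS2 2.0.10 and HOMER 4.2. The control library and read number were not given in the sources used here. The deposited Peak Score, as the authors gave it, has no stated unit and was handled as a score. The deposited Distance to TSS is in bp.

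An overlap of at least 1 bp made peaks of both conditions shared. For ratios, each peak was matched to at most 1 other, taking the largest overlaps first, and all 6 lists were merged into regions. With 1 sample per group no test was made, and Wilson and order-statistic 95% intervals were given beside the values of all peaks. Members and lists were chosen with earlier results of these data known. All 10 members were named, with their counts, highest peak per factor, nearest peak and each gained or lost peak with a score of at least 10, and of other listed genes the 3 with the most regions. Further peaks, *Ccl1*, *Ccl8* and *Ccl25* were added after their values were seen. The other listed genes entered the counts, except 1 that is not reported here. Sequences came from GRCm38.p6, on which 0 peaks ran past a chromosome end, and from the RefSeq promoter table. Alternatives changed the overlap, score minimum, rank, width, scaling, merging and gene assignment.

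Tables were handled with pandas 2.3.3 under Python 3.11.15, intervals with scipy 1.17.1 and numpy 2.4.6, sequences with samtools 1.23.1 and plots with matplotlib 3.10.9. Scripts met 9 of 9 checks, made on simulated data and by comparing overlaps of the deposited lists with bedtools 2.31.1.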

Additional observations from a re-analysis of the deposited data

Results flagged for a closer look

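The number of member peaks was lower after IL-4 for JUNB and hardly differed for the other factors. It was 1.03 times the control number for C/EBPα, 36 and 37 peaks, and 1.06 times for IRF8, 35 and 37. For JUNB it was 0.5 times, 8 and 4. The whole lists moved the same way, from 24486 to 24612 for C/EBPα, 37525 to 42076 for IRF8 and 3940 to 2325 for JUNB. The difference between factors was not tested, since each factor had 1 sample per condition. At the *Ccl4* promoter an IRF8 peak with a score of 10.07 was gained where a JUNB peak with a score of 5.39 was lost, and that difference was not tested either.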

How the results depend on the processing

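Of 85 alternative values, 78 stayed near the reported ones and 7 moved. A share counted as near when it lay inside the Wilson interval of the main value. The wide interval from 8 peaks thus let the JUNB share kept count as near at 33.3% under rank matching, against 12.5%. Some alternatives hardly altered the lists, so the tally is no measure of how firm the values are. A change of direction could be called only for a main median ratio of at least 2-fold, which none was. With a score minimum of 5, the C/EBPα peaks found only after IL-4 numbered 6 instead of 10 and the JUNB peaks found only in control 4 instead of 7. Matching the lists by rank, so that both lists of a factor held equally many peaks, left 2 JUNB peaks in control only. Counting every peak within 50000 bp of a member TSS, whichever gene was nearest, gave 7 IRF8 peaks in control only and 10 after IL-4 only, instead of 3 and 5, a JUNB median log2 ratio of -0.055 over 2 pairs instead of -0.97 over 1, and 2 regions with all 3 factors after IL-4 instead of 1. These alternatives keep fewer or more peaks by construction. Restriction to 100000 bp of the TSS could change no count, since no member peak lay farther than 30570 bp from the TSS. No paired analysis was possible because each factor and condition had 1 sample. The JUNB statements rest on 8 and 4 peaks, and a peak present in 1 list only may have a counterpart just under the peak limit in the other.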

Other observations

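The chemokine genes that lie beside *Ccl2* and *Ccl7* on chromosome 11 were not members and some were picked after their values were seen. Downstream of the *Ccl1* TSS, 7921 bp from it, a C/EBPα peak scored 50.64 in control and 129.8 after IL-4, 2.56-fold higher, and IRF8 peaks of *Ccl1* and *Ccl8* were found after IL-4 only, 2 and 3 of them, with the highest at 33.61 and 10.97. At *Ccl8* C/EBPα scored 9.82 and 33.78 in 1 peak. The other gene of the list not yet described with a peak, *Ccl25*, had its single C/EBPα peak at 12.01 and 9.86 and its single IRF8 peak at 14.59 and 10.33, both lower after IL-4. Over the 10 further CC chemokine genes 12 of 16 C/EBPα pairs and 6 of 7 IRF8 pairs scored higher after IL-4, 4 and 2 of them at least 2-fold. Over all pairs 49.7% and 55.4% were higher, and 7.72% and 11.3% at least 2-fold. No difference was tested.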
